A study of Drosophila melanogaster with 30 samples.

Results

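Mesodermal cells with weak reporter fluorescence were compared with all mesodermal cells of the same collection days in round 1 of a screen for silencers in Drosophila embryos. The comparison used 6 libraries from low-GFP CD2+ cells and 6 libraries from all CD2+ cells, which are 12 of the 30 libraries of the study, chosen by the sort and the date in their labels, and it covered all 576 barcoded elements of the round 1 pool. In each reporter a strong, ubiquitous enhancer drove GFP beside 1 candidate element. Males from the pool of reporter insertions, each carrying random picks of it, were mated with virgin females of the twi:CD2 line, so both sorts share the same cross and differ in the gate on GFP. Pooled embryos were collected for 2.25 h and aged for 11 h at 18 °C, dissociated in bulk and stained with an Alexa647-coupled antibody against rat CD2, and the elements were recovered from genomic DNA by nested PCR. In the twi:CD2 line the CD2 surface protein is made under the control of twist, the master regulator of mesoderm, so the stain marks cells of that lineage. The low-GFP cells were a part of the CD2+ population, and the CD2+ libraries therefore hold them too. The counts are of reporter DNA, not of transcripts, so no marker gene could be read to check the identity of the sorted cells.

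A silencer is a stretch of DNA that lowers transcription from a promoter in the cells where repressors bind it. Repressors of the Drosophila embryo act largely through the corepressors CtBP and Groucho or through Polycomb complexes, which mark chromatin with H3K27me3, while insulators block an enhancer that lies on the far side of them. In the reporter used here, an element that lowers GFP in mesoderm puts the cells that carry it into the low-GFP sort, so its barcode is recovered more often from those cells than from all CD2+ cells, and an element that leaves GFP high or raises it is recovered less often. A recovered count cannot tell a larger number of carrier cells in the sort from a better recovery of the same number.

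Each element was read through a barcode of 12 bases, and these tags, not the elements, are what the reads identified. The sequences of the elements are not printed. The tags below are those of some of the called elements. First come 3 with large rises, then 2 pairs in which elements of 1 gene were called in opposite directions. The ftz tags differ at 10 of 12 bases and the ey tags at 9, and no 2 of the 576 tags differ at fewer than 3. Such distances bear on sequencing errors only, and mixing of tags in the PCR or in mapping was not tested.
Z600_z600-lacZ: ccatgaagctgt
h_HHRE: tggtcctattgg
Ddc_-0.47: gccttctgcctt
ftz_5'delta276: ctataggaccgt
ftz_-669_-386: actaggccgtct
ey_UE0.9: ccaggcagtcta
ey_5D11: tagctgggtaaa
bib_5924: ttgcctgcctgg
ems_ems_ARFE-subA: taaaggcagaac
The last 2 tags belong to elements that were called lower in low-GFP cells.

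Depth, as read 1 counts, lay between 4180158 and 5443087 in the low-GFP libraries and between 3399506 and 4917450 in the CD2+ libraries. A library held reads of 347 to 371 elements in low-GFP cells and of 325 to 368 in CD2+ cells. Levels are given as CPM, counts scaled by TMM to an effective library size and multiplied up to 1e6, so a level can exceed the raw share. A count of 0 allowed a level of up to 0.635 to 1.47 CPM in low-GFP libraries and up to 0.416 to 0.799 CPM in CD2+ libraries, which is 3 counts of each library and covers counting error only, since reads were amplified by PCR and carry no molecular identifiers, so that several may stem from 1 template. Log2 CPM correlated at 0.763 to 0.905 among the low-GFP libraries and at 0.655 to 0.886 among the CD2+ libraries. Single libraries lacked elements that the rest of their sort held: between 7 and 38 tested elements lay under 10 CPM in 1 low-GFP library although their median over the other 5 was at least 100 CPM, and between 10 and 76 did so in 1 CD2+ library. The CD2+ library of day 6 lacked most, 76 of 267, among them 8 of the elements called higher below. Without day 6 the calls numbered 40 higher and 7 lower, and the part of the missing elements in the calls was not otherwise tested.

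Counts were concentrated on fewer elements in the low-GFP libraries than in the CD2+ libraries of the same days. The effective number of elements, the exponential of the Shannon entropy of the shares, was 77.3 ± 29.1 in low-GFP cells and 145 ± 12.7 in CD2+ cells (mean ± SD, n = 6 each). It was lower on 6 of 6 days (exact two-sided sign-flip test over days, p = 0.03125, the smallest that 6 days can give, and 0.0625 after Benjamini-Hochberg adjustment over 4 such tests). The 10 most abundant elements of a library held 42.2 ± 9.63% of low-GFP counts and 21.8 ± 1.59% of CD2+ counts, higher on 6 of 6 days (exact p = 0.03125, adjusted 0.0625). The number of elements with any read was 360 ± 9.15 in low-GFP cells and 347 ± 16.8 in CD2+ cells, a difference that did not exceed its spread over days (exact p = 0.1875, adjusted 0.1875). None of the 4 differences passed after adjustment.

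Low-GFP cells were enriched for 40 elements and depleted of 19 among the 331 that had enough reads to be tested. The background rate of calls was 17.8% in either direction, 12.1% for higher and 5.74% for lower, at an adjusted p under 0.05 in an edgeR quasi-likelihood fit with collection day as a term. Of the 576 elements, 411 had a read in at least 1 of the 12 libraries, 234 had one in all 12, 165 had none, and 80 were seen but too scarce to test. No element was present in all 6 libraries of 1 sort and absent from the other sort. Among the tested elements, 40 had every low-GFP level above every CD2+ level, which is 12.1%, and 14 had every low-GFP level below, which is 4.23%; 35 and 11 of these were called.

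The split between the directions depended on how the libraries were scaled. It was 40 higher and 19 lower with TMM. Total counts gave 29 higher (8.76%) and 31 lower (9.37%), and scaling on the E. coli controls gave 66 higher (19.9%) and 0 lower. The median log2 fold change of all tested elements was -0.15, -0.95 and 1.36 under the 3 scalings. All 40 elements called higher also had a fold change above 0 under both other scalings, and all 19 called lower had one below 0, although with E. coli scaling none of the 19 passed and their values ran from -2.01 to -0.02. The E. coli elements, bacterial DNA named as controls, were 7 of the tested elements, and 0 were called with TMM. Their share of counts was 0.797 ± 0.565% in low-GFP cells and 1.12 ± 0.206% in CD2+ cells, lower on 4 of 6 days (exact p = 0.125, adjusted 0.167). Their fold changes spread widely, with a median of -1.03, the lowest at -4.49 for Ecoli_control24 and the highest at 2.02 (edgeR adjusted p = 0.0834) for Ecoli_control22, which was above 0 on all 6 days. Medians of element groups are therefore read below against the median of all tested elements, -0.15, rather than against 0.

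**Figure D1:**
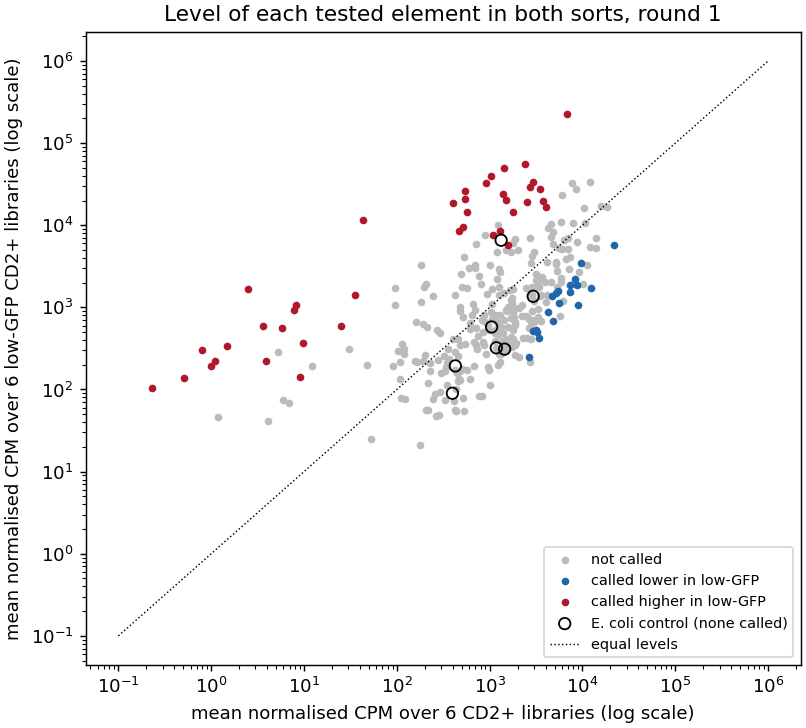
Mean level of each of the 331 tested elements over the 6 low-GFP CD2+ libraries (vertical axis) against the mean over the 6 CD2+ libraries (horizontal axis), both in TMM-scaled CPM on log scales; red points were called higher in low-GFP cells, blue points lower, grey points not called, and open circles are the 7 E. coli controls. A group of 14 red points lies at the left, under 20 CPM in CD2+ cells, while every blue point lies at 2681 CPM or more there.

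Elements called higher ranged from rare to moderately abundant in CD2+ cells. For 14 of the 40 the mean CD2+ level was under 20 CPM, with low-GFP means of 103 to 1687 CPM, and the other 26 were more abundant in CD2+ cells, up to 6772 CPM. Reads in the low-GFP libraries alone were enough for an element to be tested. One nearly absent from CD2+ cells was therefore tested only where low-GFP cells held it, so rises of the rarest elements are partly set by this filter. Elements called lower were all abundant, with CD2+ means of at least 2681 CPM. Rises held on all 6 days for 39 of the 40 elements and falls on all 6 days for 19 of 19. Of the 272 tested elements not called, 23 were higher and 24 lower on all 6 days. The calls came from these same 6 days. Agreement of sign between days or experiments is therefore largely built into them and is no separate support. When the days of the 2 experiments were fitted apart, 38 of the 40 could be fitted in both and all 38 were above 0 in both, and all 19 were below 0 in both. With 3 days each these fits called 0 and 1 elements, the 1 being CAD2_sns in experiment 2. No fold change was found to differ between the 2 experiments by the edgeR interaction test (0 called, 6 at an unadjusted p under 0.05), while the same test in DESeq2 called 14.

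Class I insulators took up a larger share of the low-GFP libraries than of the CD2+ libraries, and 4 of them were called higher. They made up 9.92 ± 2.79% of low-GFP counts and 4.52 ± 0.792% of CD2+ counts (mean ± SD, n = 6 each), and the share was higher in low-GFP cells on 6 of 6 days. Of 24 listed, 13 were tested, of which 4 were called higher, 0 lower and 9 neither. The higher calls came to 30.8% of those tested, against 12.1% of all tested elements, and the lower calls to 0 against 5.74%. The class had a median log2 fold change of 2.98 against -0.15 for all tested elements. The class lay 3.13 above the median of all elements with TMM, 3.32 above it with total counts and 2.95 with E. coli scaling. Day 6 gave a much larger class median than the other days, 6.35 against 0.36 to 2.55, and without day 6 the class median of the fit was 1.92.

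ClassI_ins_29 had a lowest, median and highest level of 16219, 34106 and 47906 CPM in low-GFP cells, against 1053, 1933 and 7116 CPM in CD2+ cells. The sorts did not overlap, and the fitted log2 fold change came to 3.79 (SE 0.46, edgeR adjusted p = 0.00162). ClassI_ins_210 had 10736, 26309 and 48021 CPM in low-GFP cells, against 1134, 1972 and 10219.5 CPM in CD2+ cells, given in the same order. Its groups did not overlap either, with a fold change of 3.21 (SE 0.50, edgeR adjusted p = 0.00374), a call that was lost when all 18 round 1 libraries were fitted together. ClassI_ins_87 was scarcer, with 4139.97, 6731 and 15009.6 CPM in low-GFP cells, against 69.5, 392 and 1151 CPM in CD2+ cells. Every low-GFP library again lay above every CD2+ library, at 4.62 (SE 0.75, edgeR adjusted p = 0.00449). ClassI_ins_196 reached 4448, 25646 and 134302 CPM in low-GFP cells, against 1.85, 712 and 2563 CPM in CD2+ cells. The groups did not overlap, and in CD2+ cells it was nearly missing on days 3 and 6. The fold change was 5.92 (SE 1.67, edgeR adjusted p = 0.0371), and the call was lost without day 2, 4 or 5. ClassI_ins_61, the most abundant member in CD2+ cells, did not pass. It held 1.31 ± 0.933% of low-GFP counts, against 2.13 ± 0.644% of CD2+ counts, with a log2 fold change of -0.14 (edgeR adjusted p = 0.893). The remaining 8 ran from -1.46 for ClassI_ins_212 to 7.63 (edgeR adjusted p = 0.106) for ClassI_ins_157, and none of them passed. Among the 6 insulators listed under names of their own only ins_Fab-8 could be tested, a boundary element of the bithorax complex, and it stood at -0.15 (edgeR adjusted p = 0.972).

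**Figure D2:**
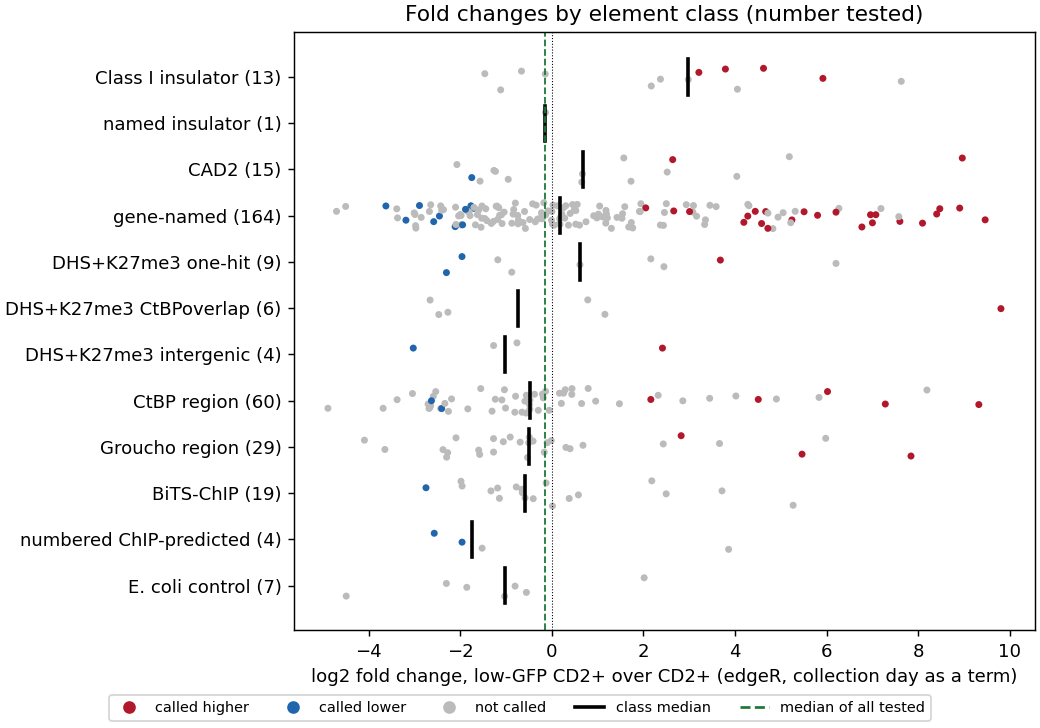
Log2 fold change of each tested element, low-GFP CD2+ over CD2+, by element class, with the number tested in brackets; red was called higher, blue lower and grey neither, a black bar is the class median and the dashed line the median of all tested elements, -0.15. Class I insulators lie furthest to the right with a median of 2.98, and the 4 numbered ChIP-predicted elements furthest to the left with -1.74.

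Elements named BiTS-ChIP and the numbered ChIP-predicted elements held smaller shares of the low-GFP libraries. BiTS-ChIP, a form of chromatin immunoprecipitation (ChIP), is a method of profiling chromatin from nuclei sorted by tissue. Elements with this name made up 2.55 ± 0.918% of low-GFP counts and 7.0 ± 0.899% of CD2+ counts, a share that was lower in low-GFP cells on 6 of 6 days. Of 31 listed, 19 were tested, 0 were called higher and 1 lower, with a median of -0.58. The calls came to 0% higher and 5.26% lower, against 12.1% and 5.74% of all tested elements, so lower calls were no more frequent than in the background. The class median lay -0.44, -0.40 and -0.13 from that of all tested elements with TMM, total counts and E. coli scaling. The 1 was BiTS-ChIP_K4me1+K27me3+K27ac_96, named for a mark of enhancers, the Polycomb mark and a mark of active enhancers, with 1069, 1431 and 3422 CPM in low-GFP cells, against 6439, 8259 and 24792 CPM in CD2+ cells. All 6 low-GFP libraries lay below all 6 CD2+ libraries, and the fitted log2 fold change came to -2.75 (SE 0.40, edgeR adjusted p = 0.00318). The numbered ChIP-predicted elements, 6 named ChIPCRM with a number and 1 named CBP2862, of which 4 could be tested, held 1.31 ± 0.557% of low-GFP counts and 3.62 ± 1.06% of CD2+ counts, again lower on 6 of 6 days. Of these 4, 2 were called lower and 0 higher, with a median of -1.74. The 2 are 50% of only 4 tested elements, against 5.74% called lower among all tested elements. ChIPCRM5432, which was the most abundant element of the CD2+ libraries on average, held 0.472 ± 0.210% of low-GFP counts, against 2.93 ± 1.03% of CD2+ counts. Its levels were 3424, 5223 and 9596 CPM in low-GFP cells, against 18697, 19737 and 30153 CPM in CD2+ cells, without overlap, and it fell by a fitted -1.96 (SE 0.36, edgeR adjusted p = 0.00744). ChIPCRM2497 had 221, 558 and 781 CPM in low-GFP cells, against 1623, 2711 and 5535 CPM in CD2+ cells, also without overlap, and a fold change of -2.57 (SE 0.60, edgeR adjusted p = 0.0185) that was lost without day 1 or 4. ChIPCRM3152 went the other way and just missed the threshold at 3.86 (edgeR adjusted p = 0.0516), with 1 CD2+ library at 0.506 CPM.

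**Figure D3:**
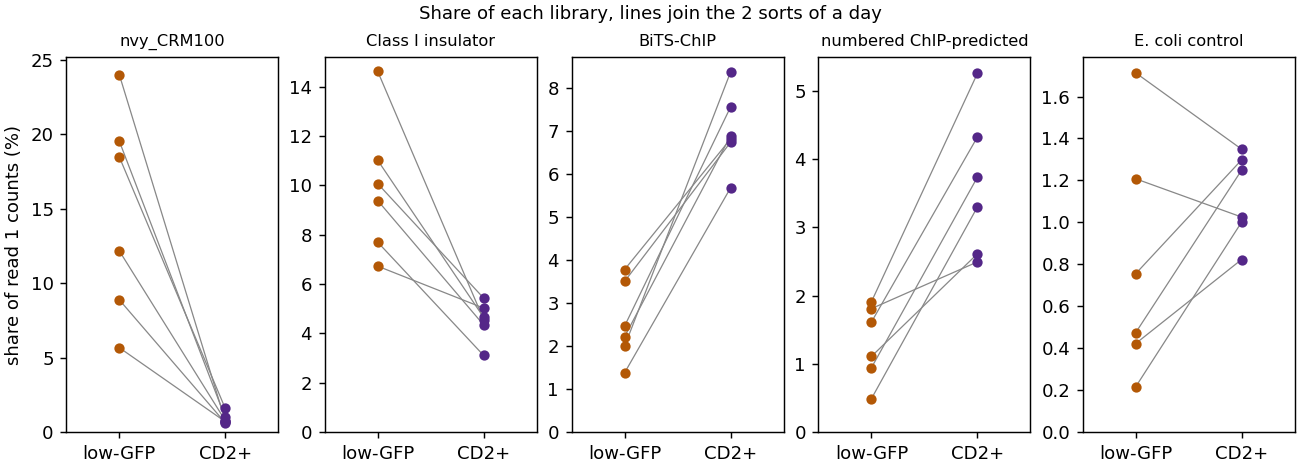
Share of read 1 counts in percent, from 0, held by nvy_CRM100 and by 4 element classes in each library; brown points are low-GFP libraries, purple points CD2+ libraries, and lines join the sorts of a day. nvy_CRM100 and Class I insulators took a larger share in low-GFP cells on all 6 days, BiTS-ChIP and numbered ChIP-predicted elements a smaller one, and the lines of E. coli controls cross.

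Elements named for sites of the corepressors CtBP and Groucho, which silencing factors recruit in the early embryo, were called higher at rates near the background of 12.1%, 8.33% of the tested CtBP regions and 10.3% of the tested Groucho regions. Of 92 CtBP regions listed, 60 were tested, 5 were called higher, 2 lower and 53 neither, with a median of -0.48. E_0_12h_dCtBP7667.region_707 was among the 5 elements with the largest share of low-GFP counts, with 16311, 57491 and 112058 CPM in low-GFP cells, against 548, 2169.6 and 4792 CPM in CD2+ cells. The groups were far apart, and the fitted change was 4.51 (SE 0.50, edgeR adjusted p = 0.00122). E_0_12h_dCtBP7667.region_4530 was rare, with 168, 297 and 443 CPM in low-GFP cells, against 0, 0.416 and 2.54 CPM in CD2+ cells, and stood at 9.32 (SE 1.71, edgeR adjusted p = 0.00744). E_0_12h_dCtBP7667.region_3509 and E_0_12h_dCtBP7667.region_2748 were called lower, at -2.63 and -2.41, calls that were each lost when day 1, 3, 4, 5 or 6 was left out and when the day was left out of the fit as a term. Of 57 Groucho regions 29 were tested, 3 were called higher, 0 lower and 26 neither, with a median of -0.50. E0_12_GROAviva_ChIP_chip.region_481 was rare in CD2+ cells, with 51.6, 106 and 445 CPM in low-GFP cells, against 0, 0.737 and 2.31 CPM in CD2+ cells, and its fold change was 7.84 (SE 1.51, edgeR adjusted p = 0.00853). E0_12_GROAviva_ChIP_chip.region_43 had every low-GFP level below every CD2+ level but did not pass, at -4.09 (edgeR adjusted p = 0.0593).

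Of the elements named DHS+K27me3, for DNase hypersensitive sites with the Polycomb mark, 19 of 41 were tested, and 3 were called higher and 3 lower, with a median of -0.76. Each direction came to 15.8% of those tested, against 12.1% higher and 5.74% lower among all tested elements. DHS+K27me3_CtBPoverlap_2267 had the largest fold change of all elements called, with 166, 261 and 621 CPM in low-GFP cells, against 0, 0.258 and 7.86 CPM in CD2+ cells. It had reads in 4 of 6 CD2+ libraries, so its fold change, 9.81 (SE 1.93, edgeR adjusted p = 0.0088), rests on few CD2+ reads. DHS+K27me3_one-hit_1265 was common in both sorts, with 15068, 19179 and 71282 CPM in low-GFP cells, against 283, 2727 and 5774 CPM in CD2+ cells, and rose without overlap by 3.68 (SE 0.57, edgeR adjusted p = 0.00374). DHS+K27me3_intergenic_1490a had 1852, 5434 and 20837 CPM in low-GFP cells, against 806, 1105 and 1354 CPM in CD2+ cells, without overlap, and 2.42 (SE 0.60, edgeR adjusted p = 0.0228), a call lost without day 1, 3, 5 or 6 and with total counts. Falls were measured for DHS+K27me3_intergenic_2153, with 121, 591 and 1427 CPM in low-GFP cells, against 2275, 4145 and 9249 CPM in CD2+ cells and a fitted change of -3.03 (SE 0.62, edgeR adjusted p = 0.0101), and for DHS+K27me3_one-hit_2645, with 1194, 1567 and 3089 CPM in low-GFP cells, against 5011, 5954 and 14661 CPM in CD2+ cells and -1.96 (SE 0.41, edgeR adjusted p = 0.011). Neither of these overlapped between the sorts, and both calls were kept whichever day was left out. DHS+K27me3_one-hit_75, at -2.30 (edgeR adjusted p = 0.0299), lost the call without day 1, 3, 4, 5 or 6.

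The CAD2 elements, 15 tested of 25, gave 2 called higher and 1 lower, with a median of 0.67. The calls came to 13.3% higher and 6.67% lower, near the 12.1% and 5.74% of all tested elements. CAD2_sns belongs to sticks and stones, which codes for an adhesion protein of myoblasts needed for their fusion, and its fit gave the smallest p of all elements. Its levels were 8563, 10876 and 14936 CPM in low-GFP cells, against 8.61, 20.7 and 164 CPM in CD2+ cells. The lowest low-GFP library lay far above the highest CD2+ library, that of day 2, and the fitted change was 8.96 (SE 0.85, edgeR adjusted p = 0.000648). CAD2_Ket-2 was called lower at -1.75 (edgeR adjusted p = 0.047), close to the threshold, and lost the call whichever day was left out. The other CAD2 element called higher, CAD2_Meso-CRM-965, falls outside the rule for naming elements and was chosen after its values were seen. It had 7069, 20366 and 32592 CPM in low-GFP cells, against 824, 4293 and 6713 CPM in CD2+ cells, without overlap, and stood at 2.64 (SE 0.47, edgeR adjusted p = 0.00653).

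Among elements named for a gene, 281 were listed, 164 tested, 23 called higher (14.0%) and 10 lower (6.10%), with a median of 0.17. Elements of germline, cell-cycle and late effector genes had the highest median of the gene lists with at least 10 tested elements, 4.58. Of 18 listed 13 were tested, 5 were called higher, 1 lower and 7 neither. The calls came to 38.5% higher and 7.69% lower, against 12.1% and 5.74% of all tested elements. The median of their CD2+ mean levels was 25.1 CPM, against 1256 CPM over all tested elements, and that of their low-GFP means 572 CPM, against 777 CPM. Elements nearly absent from CD2+ cells were tested only because low-GFP libraries held them. The median fold change and the rate of higher calls of this list are therefore partly set by the filter. The share of counts of this list ran the other way, 1.29 ± 0.506% in low-GFP cells and 2.63 ± 0.893% in CD2+ cells, and was lower in low-GFP cells on 6 of 6 days. Z600_z600-lacZ, of a gene whose protein holds back mitosis at gastrulation, had 454, 1887 and 2609 CPM in low-GFP cells, against 0.675, 1.88 and 5.09 CPM in CD2+ cells. No CD2+ library reached the lowest low-GFP library, and the fitted change was 9.46 (SE 1.28, edgeR adjusted p = 0.00276). vas_construct16, of the germline RNA helicase gene vasa, was rare, with 90.7, 203 and 432 CPM in low-GFP cells, against 0, 1.02 and 2.73 CPM in CD2+ cells, and stood at 8.10 (SE 1.74, edgeR adjusted p = 0.013). CG4364_upstreamCRM had 234, 1023 and 2155 CPM in low-GFP cells, against 2.91, 5.88 and 21.5 CPM in CD2+ cells, again without overlap, and 7.0 (SE 1.22, edgeR adjusted p = 0.00653). The other 2 called higher, Est-6_D-511 of an esterase of the male reproductive tract at 6.77 and ovo_E2 of a transcription factor of germline and epidermis at 4.58, were named after their values were seen, and the ovo call was lost whichever day was left out. The second vasa element of this list, vas_96bpEnhancer, also named after its value was seen, did not pass at 1.68 (edgeR adjusted p = 0.455). The 1 called lower was dap_dap-BB, of the Cdk inhibitor gene dacapo, at -1.70 (edgeR adjusted p = 0.0493). It lay just inside the threshold and the call was lost whichever day was left out.

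Opsin elements, which drive expression in photoreceptors of the adult eye, gave 2 called higher of 3 tested and 5 listed, with a median of 5.24. The 2 are 66.7% of only 3 tested elements, against 12.1% called higher among all tested elements. As in the germline list, the filter partly sets this rate and median. Rh5_promoter had 67.0, 158 and 484 CPM in low-GFP cells, against 0.844, 3.24 and 10.4 CPM in CD2+ cells. Each low-GFP library lay above each CD2+ library, and the fold change was 5.80 (SE 1.28, edgeR adjusted p = 0.0149). ninaE_proximal_promoter_region, of the major rhodopsin of the outer photoreceptors, stood at 5.24 (edgeR adjusted p = 0.0182) with overlapping groups, and the call was lost without day 1. It was named after its value was seen, as was Rh6_-555_+121, which did not pass at 3.34 (edgeR adjusted p = 0.284).

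Elements of genes of neural lineages took up 27.1 ± 6.36% of low-GFP counts and 13.1 ± 1.84% of CD2+ counts, higher on 6 of 6 days. The rise was about as large as that of 1 element alone, nvy_CRM100, so it was not read as a rise of the whole list. nvy_CRM100, of nervy, an ETO-family corepressor of neurons, held 14.8 ± 7.02% of low-GFP counts, against 0.899 ± 0.356% of CD2+ counts. Its share was at least 5.66% and at most 24.0% in low-GFP libraries, the largest share of any element there. Its levels were 55427, 197275 and 570711 CPM in low-GFP cells, against 4994, 6029 and 11136 CPM in CD2+ cells, so no library of the sorts overlapped, and the fitted log2 fold change came to 4.72 (SE 0.67, edgeR adjusted p = 0.00315). Of the 44 listed neural elements 34 were tested, 6 were called higher, 3 lower and 25 neither, with a median of 0.50. The calls came to 17.6% higher and 8.82% lower, against 12.1% and 5.74% of all tested elements. Ddc_-0.47, of dopa decarboxylase, an enzyme of dopamine and serotonin synthesis and of cuticle hardening, had 659.5, 899 and 1309 CPM in low-GFP cells, against 3.96, 8.27 and 11.1 CPM in CD2+ cells. The spread within each sort was small beside the gap between them, and the fold change was 6.96 (SE 1.22, edgeR adjusted p = 0.00653). vvl_484-5prime, of the POU-domain factor ventral veins lacking, which acts in trachea and nervous system, had 2538, 10022 and 51265 CPM in low-GFP cells, against 0.463, 439 and 1221 CPM in CD2+ cells. The CD2+ libraries of days 3 and 6 held almost none of it, and the call, 6.21 (SE 1.53, edgeR adjusted p = 0.0225), was lost without day 4 or 5 and with total counts. nerfin-1_fragment14, of a zinc finger protein of young neurons that was on none of the gene lists, was among the 5 largest elements of the low-GFP libraries, with 3.20 ± 1.90% of low-GFP counts, against 0.200 ± 0.174% of CD2+ counts. Its levels were 11956, 29974 and 134543 CPM in low-GFP cells, against 4.79, 1400.2 and 3113 CPM in CD2+ cells, without overlap, and its fold change, 5.51 (SE 1.24, edgeR adjusted p = 0.0163), was lost without day 2. repo_-1.1, of the homeodomain factor that specifies glia, was close to absent in both sorts on days 1 and 2 and was called at 2.05 (edgeR adjusted p = 0.0358), a call lost without day 1, 2, 3, 5 or 6.

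**Figure D4:**
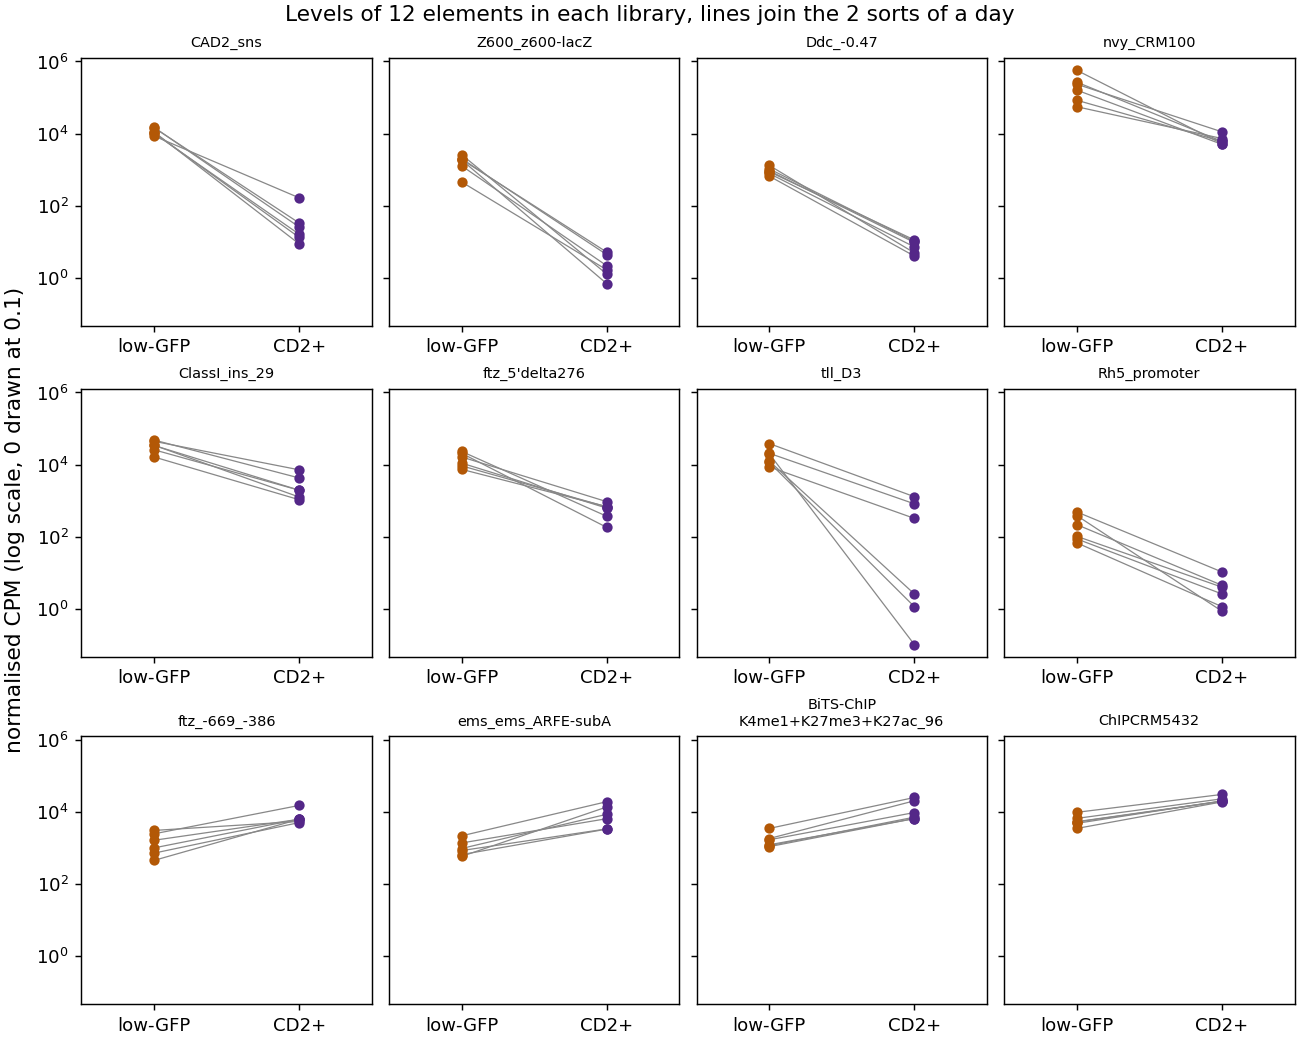
Levels of 12 elements in each library in TMM-scaled CPM on a log scale, with a level of 0 drawn at 0.1; brown points on the left of each panel are the 6 low-GFP libraries, purple points on the right the 6 CD2+ libraries, and lines join the sorts of a day. The first 8 panels show elements called higher and the last 4 elements called lower; for tll_D3 the CD2+ points fall into 3 libraries between 319 and 1277 CPM and 3 between 0 and 2.54 CPM.

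Proneural and Notch pathway elements, which govern the choice between neural and epidermal fate, gave 2 called higher and 1 lower of 6 tested and 12 listed, with a median of 0.76. With only 6 tested, the calls came to 33.3% higher and 16.7% lower, against 12.1% and 5.74% of all tested elements. E(spl)_m8-0.46, of a bHLH repressor that Notch signalling switches on, had 3732, 20903 and 66638 CPM in low-GFP cells, against 1.60, 451 and 1674 CPM in CD2+ cells. The lowest low-GFP value, that of day 6, still lay above every CD2+ library, and the fold change was 7.08 (SE 1.35, edgeR adjusted p = 0.00847). In the CD2+ libraries of days 3 and 6 this element was nearly missing, under 10 CPM, which enlarges the fitted change. ac_0.8, of the proneural bHLH activator achaete, had 705, 1297 and 2597 CPM in low-GFP cells, against 0.139, 7.10 and 168 CPM in CD2+ cells, without overlap, and 8.47 (SE 2.03, edgeR adjusted p = 0.0205), a call lost without day 2. bib_5924, of big brain, a channel-like membrane protein on which Notch signalling in neurogenesis depends, had 53.3, 249 and 513 CPM in low-GFP cells, against 741, 2721 and 4200.5 CPM in CD2+ cells. Every low-GFP library lay below every CD2+ library, and it had the lowest fold change among the elements called, -3.62 (SE 0.89, edgeR adjusted p = 0.0225), which was lost without day 1, 2, 3 or 4.

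Elements of segmentation genes were called at rates near or below those of all tested elements, 12.1% higher and 5.74% lower, apart from segment polarity elements, where 1 of 7 was lower. Of 20 listed pair-rule elements 14 were tested, 2 were called higher (14.3%), 1 lower (7.14%) and 11 neither, with a median of 0.70. h_HHRE, of the pair-rule repressor hairy, had 259, 667 and 809 CPM in low-GFP cells, against 0.753, 2.83 and 7.17 CPM in CD2+ cells. The sorts were far apart on every day, and the fold change was 7.60 (SE 1.42, edgeR adjusted p = 0.00744). ftz_5'delta276, of the pair-rule homeobox gene fushi tarazu, had 7356, 13602 and 23141 CPM in low-GFP cells, against 179.7, 641 and 929.7 CPM in CD2+ cells, without overlap, and 4.67 (SE 0.64, edgeR adjusted p = 0.00276). The other tested ftz element called, ftz_-669_-386, moved the opposite way, with 443, 1297 and 3016 CPM in low-GFP cells, against 4984, 6163 and 14911 CPM in CD2+ cells and -2.45 (SE 0.53, edgeR adjusted p = 0.013); its groups did not overlap either, but the call was lost without day 6. Of 37 gap, terminal and head gap elements 21 were tested, 1 was called higher, 1 lower (4.76% each) and 19 neither, with a median of -0.36. tll_D3, of the terminal gap gene tailless, a nuclear receptor that acts as a repressor, had 8607, 16358 and 38256 CPM in low-GFP cells, against 0, 161 and 1277 CPM in CD2+ cells. It was present in all low-GFP libraries and nearly absent from the CD2+ libraries of days 1, 3 and 6, the groups did not overlap, and the fold change of 8.91 (SE 2.38, edgeR adjusted p = 0.0299) was lost without day 1 or 3 and with total counts. The log2 ratio of its mean levels was smaller, 5.53. ems_ems_ARFE-subA, of the head gap homeobox gene empty spiracles, had 573, 891 and 2134 CPM in low-GFP cells, against 3284, 7434 and 18969 CPM in CD2+ cells. It lay lower in every low-GFP library, at -2.89 (SE 0.51, edgeR adjusted p = 0.00653), and kept the call whichever day was left out. Among 7 tested segment polarity elements of 9 listed, with a median of 0.05, the 1 called was the hedgehog element hh_alpha_fragment_(ic-CRE), lower at -1.77 (edgeR adjusted p = 0.0365), a call lost whichever day was left out.

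Elements of eye, wing and limb selector genes, transcription factors that assign the identity of these organs, held a smaller share of the low-GFP libraries, with few calls. They held 2.93 ± 0.479% of low-GFP counts and 6.65 ± 0.724% of CD2+ counts, and the share was lower in low-GFP cells on 6 of 6 days. Of 31 listed, 15 were tested, 1 was called higher, 2 lower and 12 neither, and 11 of the 15 were below 0, with a median of -1.44. Of all 331 tested elements 175 were below 0. With E. coli scaling the list median was 0.15, against 1.36 for all tested elements. The calls came to 6.67% higher and 13.3% lower, against 12.1% and 5.74% of all tested elements. ss_P732, of spineless, a bHLH-PAS factor of antenna and leg, had 6.85, 413 and 806 CPM in low-GFP cells, against 1432, 2021 and 8277 CPM in CD2+ cells. The groups did not overlap, and day 4 gave a far larger fall than the other days; the fold change was -3.19 (SE 0.93, edgeR adjusted p = 0.044), a call lost without day 1, 2, 3, 5 or 6. The eyeless elements, of the Pax6 factor of eye development, were called in both directions. ey_UE0.9 had 4040.3, 10733 and 32955 CPM in low-GFP cells, against 634, 936 and 4550.3 CPM in CD2+ cells. For ey_5D11 the levels were 125, 353 and 1304 CPM in low-GFP cells, against 677, 2824 and 7722 CPM in CD2+ cells. Levels of each overlapped between the sorts. The fitted change was 3.01 (SE 0.76, edgeR adjusted p = 0.0252) for ey_UE0.9, and it came to -2.58 (SE 0.68, edgeR adjusted p = 0.0299) for ey_5D11. The first call was lost without day 2, 3, 4 or 5 and the other whichever day was left out. Dll_215, of the limb gene Distal-less, was among the 5 largest elements of the CD2+ libraries and lay just outside the threshold at -1.44 (edgeR adjusted p = 0.0516), and vg_minimal_boundary_enhancer, of the wing gene vestigial, was another of those 5 at -1.19 (edgeR adjusted p = 0.228).

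Elements of tracheal and epidermal genes had calls in both directions: of 29 listed 16 were tested, 4 were called higher (25%, against 12.1% of all tested), 1 lower (6.25%, against 5.74%) and 11 neither, while the median was -1.51. Sox15_regionB, of a Sox-family factor, had 8 reads in all CD2+ libraries together, with 20, 61.9 and 285 CPM in low-GFP cells, against 0, 0.251 and 0.506 CPM in CD2+ cells, and 8.40 (SE 1.71, edgeR adjusted p = 0.0101). ple_995bp_wound_response_element, of pale, which codes for the tyrosine hydroxylase that starts dopamine synthesis, had 11672, 20994 and 47706 CPM in low-GFP cells, against 215, 1468 and 2491 CPM in CD2+ cells. It did not overlap between the sorts and kept the call whichever day was left out and under 10 other settings, at 4.28 (SE 0.66, edgeR adjusted p = 0.00374). trh_trh45, of trachealess, which sets up the tracheal primordia, was lower at -1.88 (edgeR adjusted p = 0.0225), a call lost without day 1, 2, 4 or 6. The catecholamine and pigment genes, which share Ddc and pale with these lists, gave 2 called higher (18.2%) and 1 lower (9.09%) of 11 tested and 16 listed, with a median of 0.12. The 1 lower was e_A.2, of ebony, an enzyme that ties up dopamine in cuticle tanning, with 672, 1789.5 and 2752 CPM in low-GFP cells, against 3075, 8390.5 and 16225 CPM in CD2+ cells, without overlap, and -2.11 (SE 0.49, edgeR adjusted p = 0.018), lost without day 1, 4 or 6.

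Elements of mesoderm and muscle genes had a median close to that of all elements. Of 25 listed 12 were tested, 1 was called higher, CAD2_sns, 0 lower and 11 neither, with a median of 0.01 against -0.15 for all tested elements. The calls came to 8.33% higher and 0% lower, against 12.1% and 5.74% of all tested elements. Of 17 neuroectoderm and midline elements, which are active beside the mesoderm, 8 were tested, 1 was called higher (12.5%, against 12.1% of all tested) and 0 lower, with a median of 1.47. The 1 called was brk_NEE-long, of brinker, a repressor of Dpp target genes, with 2724, 7587 and 18196 CPM in low-GFP cells, against 616, 811 and 2928 CPM in CD2+ cells. The groups overlapped, it was higher on each day, and the fold change was 2.66 (SE 0.59, edgeR adjusted p = 0.0149), which was lost with all 18 round 1 libraries in the fit and with total counts. Of 18 dorsal ectoderm elements 6 were tested and 0 were called, with a median of 1.87, and of 5 Hox elements 2 were tested and 0 called, with a median of 2.19. These 2 lists are too small to read against the rates of all tested elements. Lists share genes, so their counts do not add up.

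Calls were seldom shared by elements of the same gene, but differences between such elements were not tested. Several elements that did not pass had a large SE, such as h_stripe0 at 4.30 (SE 5.79), so a missing call does not show a difference. For 15 genes 3 or more elements were tested, 54 elements in all, and at most 1 of a gene was called in each direction. tailless had tll_D3 called higher while tll_K11, tll_K7 and tll_O-E stood between -0.42 and 0.17 and did not pass. The other 3 Ddc elements lay between -1.55 and 0.40, although 1 of them carries the name Ddc_silencing_element, and its groups had the same median of about 2180 CPM with overlapping values. Of the 6 hairy elements the 5 besides h_HHRE did not pass, among them h_stripe1 at 1.18 (edgeR adjusted p = 0.243) and h_stripe_6+2 at 0.02 (edgeR adjusted p = 0.998). nerfin-1_fragment4 and nerfin-1_fragment5 were abundant in both sorts and did not pass, at 0.52 and -0.75. ebony ran from e_coreAbdominalCRE, higher on all 6 days at 1.95 (edgeR adjusted p = 0.0685), to e_A.2 at -2.11. The 3 spineless elements were all below 0, at -3.19, -2.97 and -2.67, and ss_P732 alone was called. The -2.97 of ss_E2.0_522 had an SE of 3.51 (edgeR adjusted p = 0.645), and its sign differed between the experiments, 8.36 in experiment 1 and -5.18 in experiment 2. The orthodenticle and paired elements had no call: oc_SBg stood at 3.59 (edgeR adjusted p = 0.0924) and oc_otd-186 at 1.74 (edgeR adjusted p = 0.106), while prd_deltaQ had every low-GFP level above every CD2+ level and a fold change of 7.58 (SE 2.71, edgeR adjusted p = 0.0881). The castor and knirps elements, of genes of neuroblast timing and abdominal segmentation, had none either, with cas_csc-1 at 1.19 (edgeR adjusted p = 0.115) and kni_AE20 at -1.32 (edgeR adjusted p = 0.108).

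**Figure D5:**
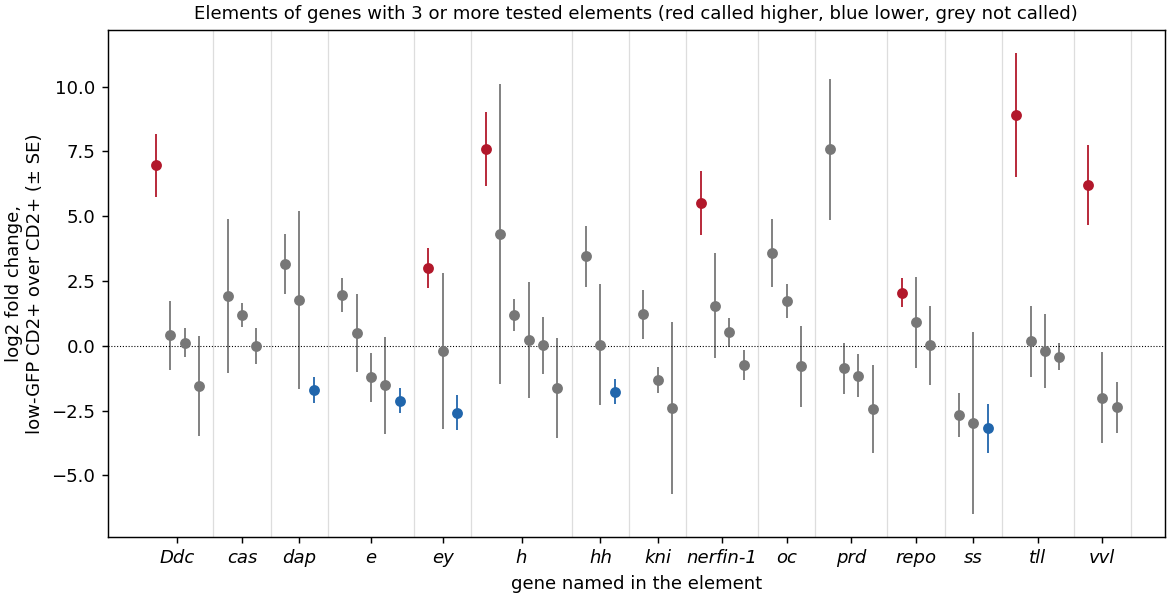
Log2 fold change with its SE, low-GFP CD2+ over CD2+, of each tested element of the 15 genes with 3 or more tested elements, grouped by gene and ordered from high to low within it; red was called higher, blue lower and grey neither. Only ey has a red and a blue point among these genes, and all 3 ss elements lie below 0, ss_E2.0_522 with an SE of 3.51.

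At the threshold, the called elements closest to it were dap_dap-BB, CAD2_Ket-2 and CG9571_O-E, with edgeR adjusted p of 0.0493, 0.047 and 0.0463, and the closest not called were Dll_215, ChIPCRM3152 and E0_12_GROAviva_ChIP_chip.region_43, with 0.0516, 0.0516 and 0.0593. CG9571_O-E lost the call without day 1, 3, 4, 5 or 6. Leaving out 1 day at a time left 36 to 47 elements called, the fewest without day 1, and 25 of the 40 higher and 5 of the 19 lower elements passed in all 6 of these fits. Those 5 were BiTS-ChIP_K4me1+K27me3+K27ac_96, ChIPCRM5432, DHS+K27me3_intergenic_2153, DHS+K27me3_one-hit_2645 and ems_ems_ARFE-subA. Of the 25, 21 also passed under each of 10 other settings of scaling, filter, test, read and samples, among them CAD2_sns, Z600_z600-lacZ, nvy_CRM100, ClassI_ins_29, ftz_5'delta276 and Ddc_-0.47.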

How the data were processed

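For every library the authors deposited 2 tables of read counts over the barcoded elements, 1 from each end of the fragments. DESeq appears in the submitters' processing notes without a version, and how reads were mapped, and to which build, is not given in the sources used here. Read 1 counts of the 12 libraries were fitted with edgeR 4.0.16 in R 4.3.3 (elements filtered by filterByExpr with minimum count 10, TMM factors, quasi-likelihood F test with population and collection day as terms, Benjamini-Hochberg over 331 elements, called under 0.05). The SE is the absolute log2 fold change over the square root of F and restates the test. For the differences of single days, 2 prior counts were added before the log2. The dates in the labels pair the sorts, and deviations from the sort means correlated at 0.244 to 0.469 within days (6 of 6 over 0.1; 0.0809 to 0.276, 5 of 6, within experiments). Experiment 1 is days 1 to 3, experiment 2 days 4 to 6. The labels do not say whether each day had cages of its own, so p-values measure the spread between collections. The fitted biological coefficient of variation was 1.24. The fit was also run on simulated counts with no day effect and no elements removed from single libraries. Its behaviour under those features was therefore not tested. DESeq2 1.42.0, limma 3.58.1, other scalings, filters, read 2 and left-out days were alternatives. Elements were named by a rule: the highest and lowest fold changes with 1 sign over 6 days, the smallest p per class and list, all tested elements of genes with 3 or more, controls and insulators, the 5 largest shares of each sort, and the 3 nearest the threshold on each side. Members, gene lists and this rule were chosen with earlier results of these data known, so no list was tested. Of 306 elements with a symbol in the name, 290 matched a current one. The CD2- libraries entered only 1 alternative fit.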

Additional observations from a re-analysis of the deposited data

Results flagged for a closer look

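For each named element and each class or list, the 6 daily log2 CPM differences, low-GFP minus CD2+, were examined for a single day that stands far from the other 5. The gap of that day to its neighbour, over the range of all 6, had to pass Dixon's 95% critical value, which by its construction marks about 1 in 20 groups by chance. Of 147 groups examined 15 had such a day. CAD2_sns rose least on day 2, at 5.70 against 8.77 to 10.27 on the other days, so it was far above 0 on every day. Rh5_promoter was highest on day 5 at 8.22, and nerfin-1_fragment14 on day 6 at 12.69, where its CD2+ level was 4.79 CPM; both were above 0 on all days. ss_P732 was lowest on day 4 at -8.16, where its low-GFP level was 6.85 CPM. ClassI_ins_212 was lowest on day 4 at -8.53. Ddc_silencing_element, at 9.89 on day 6, ranged between -2.29 and 1.87 on the other days, and ins_Fab-8, at 10.25 on day 1, between -2.77 and 1.40. prd_cc_repressor stood at 4.15 on day 1 and at or below -2.51 otherwise. Among E. coli controls, Ecoli_control11 stood at 2.04 on day 1 and Ecoli_control5 at 6.78 on day 6. The daily medians that strayed were those of Class I insulators at 6.35 on day 6, of catecholamine and pigment elements at 2.23 on day 6, of dorsal ectoderm elements at -0.51 on day 3, of pair-rule elements at 3.40 on day 1, and of all tested elements at 0.47 on day 6. On day 6 the CD2+ library lacked 76 of 267 elements that were otherwise common there, and the part of this in the day 6 values was not tested.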

How the results depend on the processing

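No named element that was called had a fold change of the opposite sign under any alternative, and 108 of the 112 named elements gave the same result with read 2. The number called, 59, was 140 with DESeq2 (86 higher, 54 lower), 0 and 1 within experiments 1 and 2 (0 and 1 higher, 0 and 0 lower), and 36 to 47 without single days (30 to 40 higher, 6 to 12 lower), lowest without day 1. Lower calls, 19, were 30 with all 18 libraries, 31 with total counts, 29 with limma and 0 with E. coli scaling, which gave 66 higher. Without the replicate block (the pairing by day) the calls were 76, 53 higher and 23 lower, of which 39 and 15 were shared. Fold changes that differ between experiments numbered 0, against 14 with DESeq2 and 1 without the replicate block. The median of all elements, -0.15, was -0.50 without the block, -0.66 also without the experiment term, -0.95 with total counts, 1.36 with E. coli scaling, 0.14 with limma, 0.11 in experiment 1 and -0.23 to 0.13 without single days, taken over the 331 elements of the reported fit as far as each fit tested them (over all elements each fit tested, 0.32 in experiment 1 and -0.20 to 0.18 without single days). The Class I insulator median, 2.98, was 1.5 without the block and the experiment term, and 1.92 to 3.38 without single days, lowest without day 6. With total counts and E. coli scaling the class medians were -1.35 and 1.24 for BiTS-ChIP, -1.22 and 1.05 for CtBP, -1.26 and 1.12 for Groucho, -1.66 and 0.88 for all DHS+K27me3, -1.76 and 0.45 for E. coli and -0.62 and 1.64 for gene-named elements. With E. coli scaling the CtBPoverlap, intergenic and one-hit subclasses stood at 0.63, 0.59 and 2.35, and numbered ChIP elements at -0.20, or -0.72 in experiment 2. Gene-named elements stood at -0.13 without the block, -0.46 also without the experiment term and 0.46 in experiment 1. The one-hit subclass stood at -0.70 without the block, 1.97 with all 18 libraries, 2.45 with limma, -0.58 in experiment 2 and -0.42 to 1.84 without single days, and E. coli controls at -1.57 without the block, -1.53 with all 18 libraries and -1.55 to -1.05 without single days. The causes were not tested. Cell numbers and template molecules per library are not known, which limits what read depth alone can show.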

Other observations

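The rare elements that rose in low-GFP cells had few reads in CD2+ cells. The 14 elements called higher with a mean under 20 CPM in CD2+ cells included 7 of the 10 highest fold changes, and their low-GFP means, 103 to 1687 CPM, were small beside the 9099 CPM median of all 40.

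Few of the called elements could be followed into round 2, in which low-GFP CD2+ and all CD2+ cells were sorted from a smaller pool. The labels write the low-GFP sort as GFP- in round 1 and as GFPred in round 2. They do not say whether the gates were equal. Of the 40 elements called higher 3 were listed in round 2 and of the 19 called lower 0. E_0_12h_dCtBP7667.region_3049 stood at 1.16, brk_NEE-long at 3.11 and repo_-1.1 at 0.90 on the log2 scale, all above 0 and none past the threshold (edgeR adjusted p = 0.359, 0.122 and 0.199). In that round 155 elements were tested, 20 called higher, a background of 12.9%, and 11 lower, 7.1%. This comparison was added after the data were seen.

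Barcodes of the called elements had a composition close to that of the rest. Mean GC content was 52.3% for elements called higher, 51.8% for those called lower, 53.6% for tested elements not called and 52.2% for elements not tested.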
